A study of Mus musculus with 6 samples.

Results

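The IGF binding proteins, the IGF-1 and insulin receptors and the adaptors docked to them were followed in sorted tumor epithelium as 10 listed genes of the 47643 gene identifiers in the count files. The set holds 6 binding proteins (Igfbp2, Igfbp3, Igfbp4, Igfbp5, Igfbp6 and Igfbp7), 2 receptors (Igf1r and Insr) and 2 adaptors (Irs1 and Irs2), chosen by name and matched by Ensembl identifier to mouse gene symbols. All 10 were in the files. Of them, 7 passed a filter on low counts, as did 12088 genes in all, and Igfbp2, Igfbp3 and Igfbp6 did not.

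The cells came from 6 mammary tumors of MMTV-PyMT mice on the FVB/N background, strain FVB/N-Tg(MMTV-PyVT)634Mul/J, in which the MMTV promoter drives the polyoma middle T antigen in mammary epithelium. The mice were given the anti-VEGF-A antibody B20-4.1.1 by intraperitoneal injection, at a dose of 5 mg/kg and 2 times per week, for 6 weeks from the age of 7 weeks, after which CD45-EPCAM+ cells were sorted. Whether the 6 tumors came from 6 different mice is not stated in the labels. No vehicle-treated tumor was analysed here, and the labels do not say which tumors were of low (LH) and which of high hypoxia (HH), so the 6 libraries form 1 group and are numbered 1 to 6. Libraries read the 3′ ends of transcripts, and total counts on genes ranged from 2509482 to 5893246. The floor of detection, set at 3 counts, was worth 0.509 to 1.20 CPM (counts scaled to a common library total), and these floors, like all intervals on counts given here, cover counting error only. The 7 luminal markers (keratins Krt8, Krt18 and Krt19, claudins Cldn3 and Cldn7, Cdh1 and Epcam) summed to 3957 to 4874 CPM, and all 7 were detected. Markers of other cells were low, with sums of 15.3 to 26.4 CPM for 7 fibroblast genes, 1.59 to 4.12 CPM for 5 endothelial genes (Emcn at 0 throughout), 46.4 to 82.5 CPM for 4 pericyte genes and 0 to 0.727 CPM for 3 adipocyte genes. Of the pericyte sums, Notch3 alone made 45.3 to 78.4 CPM, and Rgs5 and Cspg4 had at most 2 counts in any library. The 7 immune genes summed to 215 CPM and the 3 erythroid genes to 778 CPM in tumor 3, against at most 48.5 and 63.3 CPM in the other tumors.

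Insulin-like growth factors 1 and 2 signal through the IGF-1 receptor, a tyrosine kinase closely related to the insulin receptor, and both receptors phosphorylate IRS adaptors that recruit PI3-kinase and activate AKT. Secreted binding proteins hold the ligands in tissue fluid and plasma, and proteases that cut them set the ligands free. In the mammary gland, Igfbp5 is best known as a secreted factor of the involuting epithelium, where it limits IGF survival signals.

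Igfbp5 and Igfbp2 are neighbours, and their promoters are shown because these adjoining genes were measured at very different levels. In GRCm38, Igfbp5 (ENSMUSG00000026185) lies at chr1:72857932-72874884 on the minus strand and Igfbp2 (ENSMUSG00000039323) at chr1:72824503-72852474 on the plus strand, with their 3′ ends facing each other across 5457 bases and 0 annotated genes between them. The RefSeq promoter sequences of GRCm38.p6 are printed 5′ to 3′ in the sense of each gene, for the bases before the start only, with 231 bases at chr1:72874885-72875115 for Igfbp5 (250 less 19 that GENCODE M21 places inside the gene) and 250 bases at chr1:72824230-72824479 for the more upstream of 2 Igfbp2 starts. Capitals mark the core letters of hypoxia response elements, ACGTG or GCGTG on either strand, and TATTTAA, an AT-rich run added to the search after the Igfbp5 sequence was seen.
Igfbp5: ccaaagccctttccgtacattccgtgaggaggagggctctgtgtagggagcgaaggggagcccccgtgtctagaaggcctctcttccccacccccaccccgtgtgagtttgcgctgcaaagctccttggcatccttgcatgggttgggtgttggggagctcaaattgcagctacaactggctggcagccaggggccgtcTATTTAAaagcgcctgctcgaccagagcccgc
Igfbp2: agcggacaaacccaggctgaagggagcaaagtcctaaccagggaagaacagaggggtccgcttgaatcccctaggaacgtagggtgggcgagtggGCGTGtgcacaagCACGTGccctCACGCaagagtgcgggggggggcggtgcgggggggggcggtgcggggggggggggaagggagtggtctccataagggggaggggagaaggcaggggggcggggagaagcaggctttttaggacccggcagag
The Igfbp5 window held 1 TATTTAA run, found on either strand in 4.18% of 32851 promoter windows of 250 bases, and 0 copies of either core. The run TATAAA, also searched for and present in 12.4% of windows, had 0 copies in the Igfbp5 window and 1 in each of those of Igfbp4 and Igfbp6. The Igfbp2 window printed held 3 marked runs, of which the middle one is a palindrome that reads ACGTG on both strands, and either core was present in 38.6% of all windows. The window of the other Igfbp2 start, at chr1:72825137-72825386, held 0 copies of either core. Windows were given for 9 of the 10 genes, and in 6 of these 9 at least 1 core was present (Igfbp2, Igfbp3, Igfbp7, Igf1r, Irs1 and Irs2). These matches describe letters and not bound sites.

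Igfbp5 was among the most abundant transcripts of the sorted cells. In tumors 1 to 6 it had 2944, 4565, 5161, 6958, 7719 and 10243 CPM, which was 0.294 to 1.02% of all counts on genes. Its place among all genes ranked by counts ran from 8 in tumor 6 to 19 in tumor 1. The median was 6059 CPM, with a mean of 6265 ± 2590 (SD, n = 6). Per exon length (TPM), Igfbp5 was 11.5 to 83.2 times as high as the next of the 10 genes in each tumor, which was Irs2 in tumor 2 and Igfbp7 in the others. With 11457 to 52467 counts per library, counting error was small beside the differences between tumors.

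**Figure D1:**
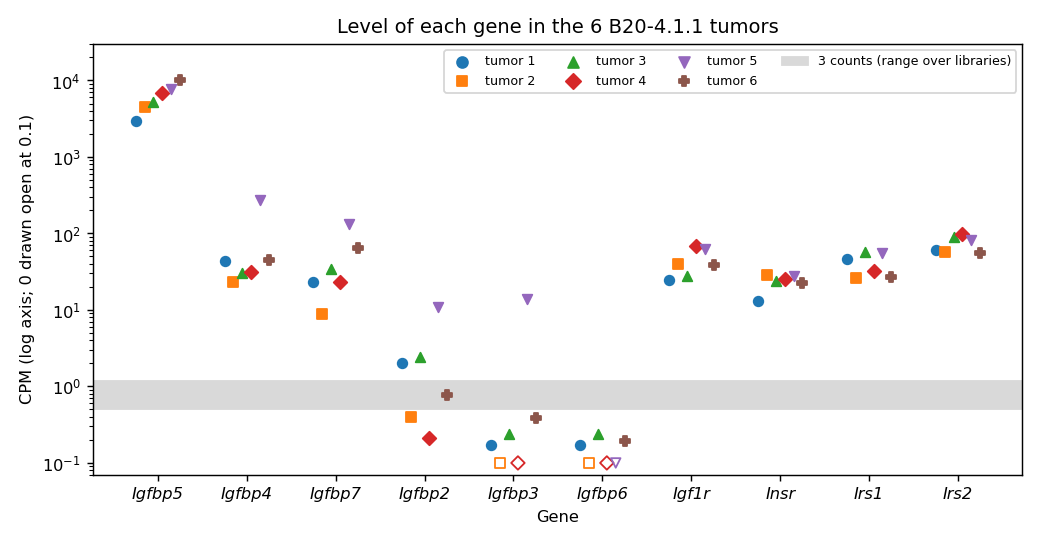
Level in CPM (log axis) of each of the 10 genes, with 1 point per tumor, open symbols at 0.1 for libraries with 0 counts, and a grey band for what 3 counts are worth in the 6 libraries. Igfbp5 lies above all other genes in every tumor, Igfbp6 and all but 1 library for Igfbp3 lie below the band, and tumor 5 is highest for Igfbp2, Igfbp3, Igfbp4 and Igfbp7.

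The other binding proteins were far less abundant, and tumor 5 was the highest of the 6 tumors for 4 of them. Igfbp4, which binds both IGFs and is cut by the protease Pappa, had 43.8, 23.1, 30.3, 31.1, 273 and 45.1 CPM in tumors 1 to 6. Igfbp7, a secreted protein with low affinity for IGFs, had 23.1, 8.77, 34.4, 23.0, 135 and 63.8 CPM. Tumor 5 was highest for both genes, 6.05-fold above the next tumor for Igfbp4 and 2.11-fold for Igfbp7.

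Igfbp2, a binding protein with a preference for IGF-2, had 12, 1, 10, 1, 55 and 4 counts in tumors 1 to 6, so that tumor 5, at 11.0 CPM (95% exact Poisson interval 8.27 to 14.3), lay above the others, the next being tumor 3 at 2.42 CPM (1.16 to 4.46). Igfbp3, the main carrier of IGFs in plasma, had 1, 0, 1, 0, 69 and 2 counts. It was thus over the floor in tumor 5 alone, where 69 counts made 13.8 CPM (10.7 to 17.4). Against the other 5 libraries pooled, with 4 counts in all, the Igfbp3 level of tumor 5 was 77.0-fold higher (95% exact interval 28.7 to 290), and that of Igfbp2, against 28 counts, 8.77-fold higher (5.47 to 14.4). These intervals compare 1 library with 5 and carry no spread between tumors. Tumor 5 was set against the others because it was highest, so the intervals describe counting error and do not test a difference. Igfbp6, which prefers IGF-2, had 1 count in each of tumors 1, 3 and 6 and 0 in the others, so it was not detectable at this depth. The liver-derived Igfbp1, not among the 10, had 0 counts in all 6 tumors.

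As a share of the counts of the 7 genes Igfbp1 to Igfbp7, which does not depend on the scaling of a library, Igfbp5 made up 97.7, 99.3, 98.7, 99.2, 94.7 and 98.9% in tumors 1 to 6. In tumor 5 the exact 95% interval, 94.5 to 94.9%, lay below those of the other 5 tumors, the lowest of which was 97.5 to 97.9% in tumor 1. Igfbp5 itself was not low in tumor 5. The other binding proteins summed to 432 CPM there, against 32.3 to 110 CPM in the other tumors. Divided by exon length, the Igfbp5 share was 94.2, 98.4, 95.9, 97.8, 87.5 and 96.4%, again lowest in tumor 5.

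The keratins Krt14 and Krt17 of the basal epithelial markers were also highest in tumor 5, and with them the sum of the 7 markers, at 504 CPM against 132 to 289 CPM in the other tumors. All 7 were detected in at least 1 library. Of them, 3 were highest in tumor 5 (Krt14 at 359 CPM against 88.8 to 241, Krt17 at 127 CPM against 14.7 to 40.8, and Myh11 with at most 2 counts) and 4 were not. Krt5 had 10.2 CPM in tumor 5 and 17.4 CPM in tumor 4, and Oxtr 2.00 CPM in tumor 5 and 3.71 CPM in tumor 6. The basal factor Trp63 was at 4.59 CPM in tumor 5 and between 3.39 and 16.0 CPM in the others, and Acta2 had at most 5 counts in any library. The fibroblast sum in tumor 5 was 22.8 CPM, inside the range of the others. The part of basal cells in the levels of Igfbp2, Igfbp3, Igfbp4 and Igfbp7 was not tested. In bulk samples, more cells of a type and more RNA per cell cannot be told apart.

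**Figure D2:**
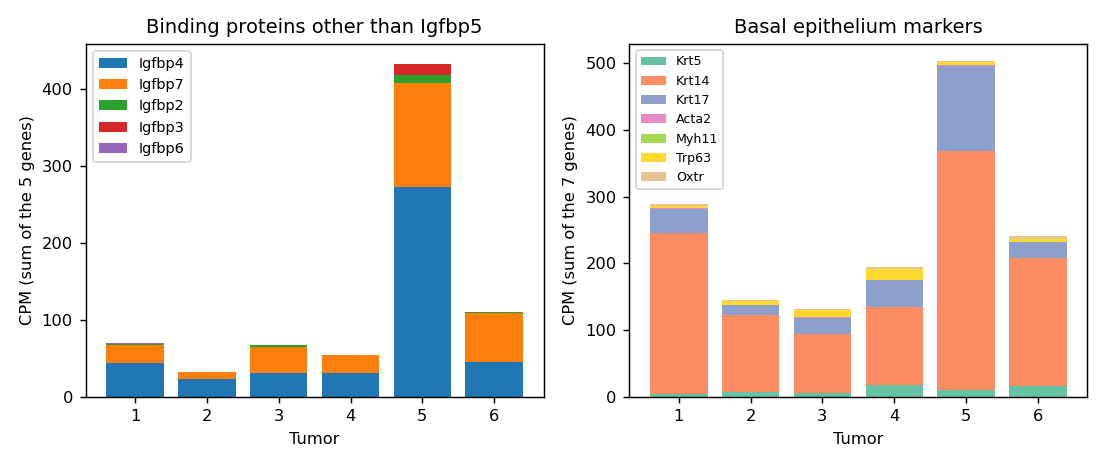
Stacked bars give the CPM of the 5 binding proteins other than Igfbp5 (left) and of the 7 basal epithelium markers (right) in each of the 6 tumors. Both sums are highest in tumor 5, at 432 CPM for the binding proteins and 504 CPM for the markers, where Igfbp4 and Krt14 contribute most.

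Both receptors were detected in every tumor at levels well below those of Igfbp5. Igf1r, the receptor for IGF-1 and IGF-2, had 24.4, 40.2, 28.1, 68.1, 63.3 and 39.0 CPM in tumors 1 to 6. Insr, the insulin receptor, had 13.2, 28.7, 24.0, 25.1, 27.6 and 22.8 CPM. Tumors 4 and 5 were the high pair for Igf1r, whereas 5 tumors were close together for Insr and tumor 1 was low.

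Igf1r exceeded Insr in counts in all 6 tumors, by 1.17- to 2.71-fold. Its share of the summed counts was 64.9, 58.4, 54.0, 73.1, 69.7 and 63.1% in tumors 1 to 6. The exact 95% interval included an equal share in tumor 3 alone (47.0 to 60.8%), and that of tumor 4 (68.6 to 77.2%) did not overlap those of tumors 2, 3 and 6. Per exon length (16791 bases for Igf1r and 13746 for Insr) the median share was 59.3%, and in tumor 3 it was 49.0%.

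Irs2 exceeded Irs1 in every tumor. Irs1, an adaptor that both receptors phosphorylate, had 46.3, 26.3, 57.0, 32.8, 54.9 and 27.3 CPM in tumors 1 to 6. Irs2, its close relative with a like role, had 60.6, 57.8, 89.5, 98.7, 83.3 and 55.8 CPM. The share of Irs1 in the 2 adaptors was 43.3, 31.3, 38.9, 24.9, 39.7 and 32.9%, with all 6 exact 95% intervals below an equal share, and 18.7 to 34.6% per exon length. The interval of tumor 4 (21.6 to 28.5%) did not overlap those of tumors 1, 3 and 5.

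**Figure D3:**
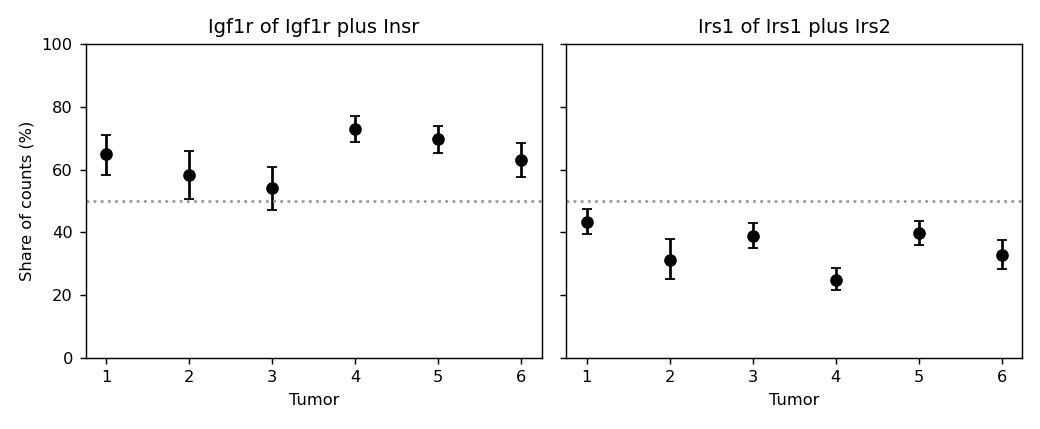
Share of Igf1r in the counts of Igf1r plus Insr (left) and of Irs1 in the counts of Irs1 plus Irs2 (right), in percent for each tumor, with exact 95% binomial intervals that cover counting error and a dotted line at an equal share. Igf1r lies above the line in all 6 tumors (54.0 to 73.1%) and Irs1 below it (24.9 to 43.3%), and tumor 4 has the highest Igf1r share and the lowest Irs1 share.

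Ordered by median level per exon length (TPM), the genes ran Igfbp5 (2611), Igfbp7 (61.0), Irs2 (28.8), Igfbp4 (21.8), Irs1 (11.2), Igf1r (6.02), Insr (4.61), Igfbp2 (1.93), Igfbp6 (0.196) and Igfbp3 (0.167). Only the step from Igfbp5 to Igfbp7 separated neighbours whose ranges over the tumors did not overlap. Irs2 was above Igfbp4 in 3 of 6 tumors, and Igfbp6 and Igfbp3 were at or near 0, so these neighbours had no stable order, whereas Igfbp4 was above Irs1 in 6 of 6. Because the libraries read 3′ ends, a division by length can lower long genes. In CPM the order was Igfbp5, Irs2, Igf1r, Irs1, Igfbp4, Igfbp7, Insr, Igfbp2, Igfbp3 and Igfbp6, so Igfbp7, with only 1209 exon bases, moved from place 2 to place 6, and Insr and Igfbp2 no longer overlapped.

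The spread between tumors differed among the genes. In TMM-scaled CPM, which edgeR adjusts for differences in composition between libraries, Irs2 and Irs1 varied least, 1.72- and 1.95-fold between the highest and the lowest tumor, followed by Insr (2.30-fold), Igf1r (2.94-fold), Igfbp5 (4.09-fold), Igfbp4 (11.0-fold) and Igfbp7 (14.4-fold). A fold of at least 4 was reached by 3 of the 7 genes that passed the filter, the 3 binding proteins, beside 21.8% of the 12088 genes tested. Igfbp5 was just inside this threshold and under it on 2 other scales, at 3.48-fold in CPM and 3.99-fold with DESeq2's size factors. It fell to 2.49-fold without tumor 1 and 2.60-fold without tumor 6. Igfbp4 fell to 2.16-fold without tumor 5. Igfbp7 remained at 8.07-fold without tumor 5 and at 5.78-fold without tumor 2, its lowest library with 22 counts. Insr, lowest in tumor 1, fell to 1.35-fold without it.

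The biological coefficient of variation from edgeR, fitted across all genes without covariates, was 0.719 for Igfbp4 and 0.666 for Igfbp7, larger than for 99.6 and 99.2% of genes relative to the trend with abundance. For Igfbp5 it was 0.411, for Igf1r 0.377, for Irs1 0.320, for Insr 0.317 and for Irs2 0.289, against a median of 0.354 over all genes tested. In TMM-scaled CPM, 3 of the 7 genes were highest in tumor 5 (Igfbp4, Igfbp7 and Irs1), beside 14.9% of all genes tested. Tumor 3 was slightly above tumor 5 for Irs1 in CPM. A gap that sets the highest tumor apart by Dixon's 95% critical value for 6 values was found for 1 of the 7, Igfbp4 with tumor 5 on top, beside 12.8% of all genes tested for any tumor and 1.24% for tumor 5.

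**Figure D4:**
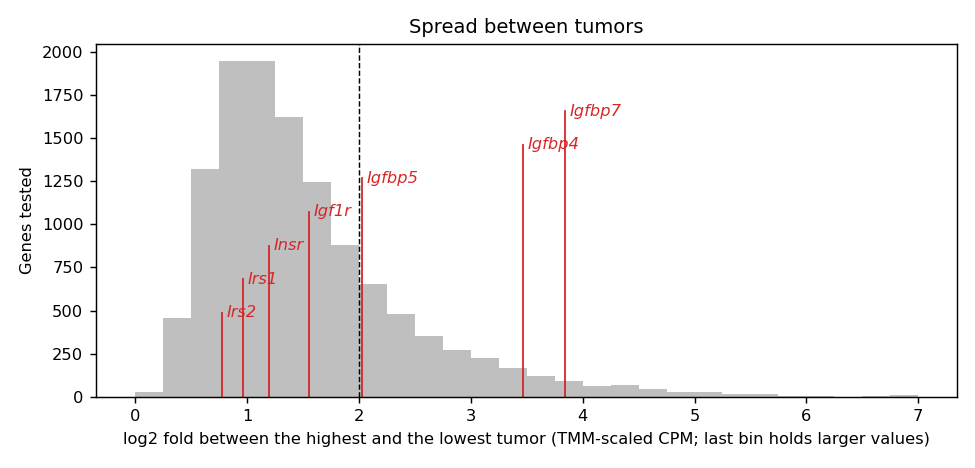
Histogram of the log2 fold between the highest and the lowest tumor in TMM-scaled CPM over the 12088 genes tested, with red lines for the 7 genes of the axis that passed the filter and a dashed line at 4-fold. Igfbp4 (11.0-fold) and Igfbp7 (14.4-fold) lie in the right tail and Irs1 and Irs2 on the left side.

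The study asks how tumors that turn hypoxic under the antibody differ from those that do not, and the measure of hypoxia that these files hold is its 3-gene score, the mean of Vegfa, Slc2a1 and Car9 in TPM, none of which is among the 10 genes. The score was 48.5, 37.2, 51.4, 76.6, 94.4 and 47.3 TPM in tumors 1 to 6, highest in tumors 5 and 4. Slc2a1 was its largest part in every tumor (69.1 to 151 TPM). Tumors 5 and 4 were highest for all 3 genes. Tumor 1 was lowest for Vegfa (21.7 TPM) and Car9 (9.81 TPM). Its Slc2a1, at 114 TPM against 69.1 in tumor 2 and 103 in tumor 6, put its score above theirs. Slopes on log2 of the score were fitted for all genes with edgeR's quasi-likelihood test and adjusted by Benjamini-Hochberg over the 12088 genes.

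None of the 7 genes passed an adjusted p of 0.05, and neither did any other gene (0%). At an unadjusted p under 0.05 there were 2 of the 7 (Igfbp4 and Igfbp7) and 512 of all genes tested (4.24%), and DESeq2 called 15 genes in all, none of them among the 7. Igfbp2, Igfbp3 and Igfbp6 were not tested with DESeq2. Of the 7, Igfbp4 had the largest slope, at 2.20 log2 units per doubling of the score (SE 0.54, adjusted p = 0.800 from edgeR, between 0.146 and 1.000 under the alternatives), and without tumor 5 it was 0.01 (SE 0.68). Igfbp7 had a slope of 1.69 (SE 0.70, adjusted p = 0.954 from edgeR), which became 0.14 (SE 1.34) without tumor 5. Both estimates thus became small without tumor 5, which had the highest score. For Igfbp7 the SE without tumor 5 was too large to tell the remaining slope from the full one. The basal marker sum, mostly Krt14 and Krt17, was also highest there, but only 3 of its 7 genes were. Its part in the slopes was not tested. Without the filter on low counts, Igfbp3 had a slope of 5.55 (SE 1.09, adjusted p = 0.0826 from edgeR) and Igfbp2 one of 2.47 (SE 0.85, adjusted p = 0.763 from edgeR), both larger than the 2.19 of Igfbp4 in that fit, and 69 of the 73 counts of Igfbp3 came from tumor 5. In the same fit Igfbp6, with at most 1 count in any library, had a slope of -1.90 (SE 1.80, adjusted p = 0.906 from edgeR).

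All 7 slopes fitted with the filter were above 0, with a median of 0.47, beside 5657 of 12088 genes and a median of -0.04 over all genes. Igfbp5 had a slope of 0.33 (SE 0.55), Irs2 of 0.47 (SE 0.32), Irs1 of 0.41 (SE 0.38) and Insr of 0.07 (SE 0.38), with adjusted p from edgeR of 0.954 to 0.982. The slope of Insr turned to -0.05 without tumor 1 and to -0.14 without tumor 5. Igf1r had a slope of 0.75 (SE 0.38, adjusted p = 0.954 from edgeR), and its direction held with each tumor left out, from 0.57 to 1.21. With the identifier prefix, QSD for tumors 2 and 3 and QAF for the other 4, as a covariate, the slopes of Igfbp5 and Igf1r were 0.03 (SE 0.65) and 0.73 (SE 0.53). What the prefix stands for is not stated in the labels.

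Across the 6 tumors, correlations of log2 levels with log2 of the score, 7 in all, had the same limits. Pearson's r was 0.72 for Igfbp4 (exact permutation p = 0.0917, Spearman's rho 0.49, exact p = 0.356), 0.75 for Irs2 (exact p = 0.0944, rho 0.66, exact p = 0.175), 0.63 for Igf1r (exact p = 0.174, rho 0.49, exact p = 0.356) and 0.33 for Igfbp5 (exact p = 0.493, rho 0.31, exact p = 0.564). The highest rank correlation was that of Irs1, with rho 0.83 (exact p = 0.0583) and r 0.52 (exact p = 0.328). For Igfbp7 r was 0.65 (exact p = 0.164) and rho 0.60 (exact p = 0.242), and for Insr r was 0.14 (exact p = 0.801) and rho -0.20 (exact p = 0.714). Without tumors 4 and 5, whose scores were farthest from the median, r over the other 4 tumors was -0.62 for Igf1r, 0.00 for Igfbp5, 0.49 for Igfbp4, 0.71 for Igfbp7, 0.84 for Irs1, 0.59 for Irs2 and -0.56 for Insr. The relation of Igf1r to the score therefore rested on tumors 4 and 5. Within the QAF prefix there were 4 tumors and within QSD 2, too few for a correlation of their own.

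**Figure D5:**
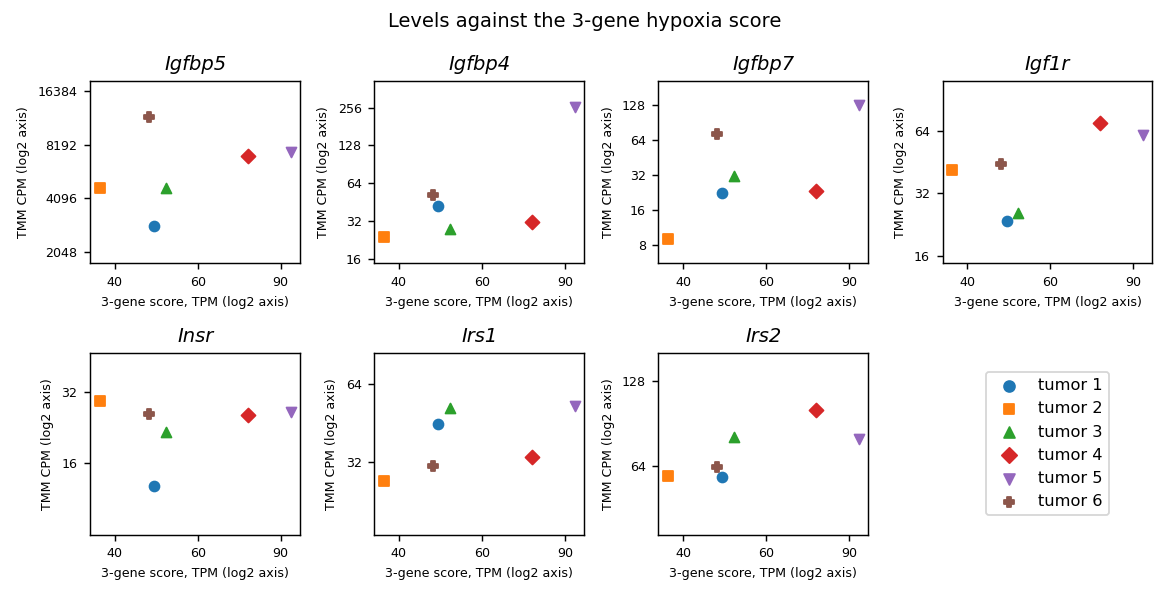
TMM-scaled CPM (log2 axis) of the 7 genes that passed the filter against the 3-gene hypoxia score in TPM (log2 axis), with 1 symbol per tumor. Igfbp4 stands near the other tumors everywhere but in tumor 5, Igf1r is highest in tumors 4 and 5, and Insr is level except for tumor 1.

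Among 4 pairs of the genes compared with each other, none had an exact permutation p under 0.05. Igfbp2 and its neighbour Igfbp5 showed no relation that 6 tumors could detect (r -0.01, exact p = 0.983, rho 0.09, exact p = 0.919), and Igfbp2 had only 1 to 4 counts in 3 of the tumors. Igf1r with Insr gave r 0.71 (exact p = 0.0653, 0.233 adjusted over the 4 pairs) and rho 0.49 (exact p = 0.356), and r was -0.68 without tumors 1 and 3. Igfbp5 with Igf1r gave r 0.70 (exact p = 0.117, 0.233 adjusted) and rho 0.71 (exact p = 0.136), and r was 0.88 without tumors 1 and 6. Irs1 with Irs2 gave r 0.28 (exact p = 0.585) and rho 0.31 (exact p = 0.564).

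The genes whose levels ran most like each member over the 6 tumors were taken from the 3763 genes that averaged 50 CPM or more, as a description. For Igfbp5 these were Ncl, the nucleolar protein nucleolin (r 0.98), Dusp1, a phosphatase of MAP kinases (0.98), Sox4, a transcription factor (0.97), Psmd1, a proteasome subunit (0.97), and Gpbp1 (0.96). Dusp1, for example, had 107, 167, 145, 219, 240 and 278 CPM in tumors 1 to 6. In all, 16 of the 3763 genes had r over 0.95 with Igfbp5, and 199 had so with Insr, whose pattern is mostly a low value in tumor 1. Ktn1 (r 1.00, 105 CPM in tumor 1 and at least 329 in the others) and Ggnbp2 (0.99) were most like Insr.

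Igfbp4 ran with Actn1, an actin crosslinker (r 0.98), and Timp3, an inhibitor of metalloproteinases (0.96), which stood at 781 CPM in tumor 5 against 86.5 to 177 CPM elsewhere. Igfbp7 ran with Cst3, the protease inhibitor cystatin C (r 0.99), at 203 CPM in tumor 5, 115 CPM in tumor 6 and 3.59 to 48.0 CPM elsewhere, and with Pdcd6 (0.98). Cul1 (0.99) and Spry2, an inhibitor of receptor tyrosine kinase signals (0.99), were most like Igf1r. Dab2 (0.96) and Sh3pxd2b (0.91) were most like Irs1, and 4931406C07Rik (0.93) and Atp6v1b2 (0.92) most like Irs2. With CPM in place of TMM-scaled CPM, Gpbp1 moved to place 135, Pdcd6 to 41 and Spry2 to 221, so these entries depend on the scaling.

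The ligands were near the floor in the sorted cells. Igf1 had at most 4 counts in any library and Igf2 at most 1, and the insulin genes Ins1 and Ins2 were at 0 in every tumor. Igf2r, which clears IGF-2 and carries lysosomal enzymes, ran at 3.90, 32.3, 72.3, 74.7, 122 and 77.3 CPM in tumors 1 to 6. It was thus low in the tumor that was also lowest for Insr, Igf1r and Igfbp5. Igfals, the acid-labile subunit of the plasma complex, had 30.1 to 103 CPM.

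Of the proteases that cut binding proteins, Pappa2 was at 0 in every tumor. Pappa, which cuts Igfbp4, had 62 counts (12.4 CPM) in tumor 5 and 1.17 to 4.68 CPM elsewhere; it did not pass the filter and is named after its values were seen. Its inhibitors Stc1 (11.5 to 21.8 CPM) and Stc2 (7.42 to 20.4 CPM) were detected in every tumor.

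At the receptors, Socs2 and Socs3, inhibitors of cytokine and growth factor signals, spanned 73.8 to 336 CPM (highest in tumor 1) and 42.8 to 134 CPM (lowest in tumor 1). Grb2 (108 to 142 CPM) and Shc1 (26.2 to 37.6 CPM), the adaptors toward RAS, and the phosphatase Ptpn1 (101 to 155 CPM) varied little, by 1.29- to 1.39-fold in TMM-scaled CPM. Grb10, an inhibitory adaptor of both receptors, ran from 15.6 to 47.3 CPM, and Irs4 was at 0 in every tumor. Gab1 (11.0 to 37.1 CPM), Sh2b2 (15.0 to 42.8 CPM) and Enpp1 (29.5 to 57.7 CPM) completed the group above a median of 10 CPM.

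All 17 genes of the PI3-kinase and AKT arm passed the filter. The regulatory subunit Pik3r1 had 453 to 877 CPM and the catalytic subunit Pik3ca 38.2 to 56.5 CPM. The kinases Akt1 and Akt2 had 71.7 to 107 CPM and 29.6 to 52.1 CPM. The lipid phosphatase Inppl1 ranged from 155 to 316 CPM. Downstream, Rps6kb1 (55.3 CPM in tumor 1, 157 to 267 in the others) and Rictor (14.4 CPM in tumor 1, 50.2 to 94.0 in the others) were low in tumor 1, whereas Mtor (131 CPM in tumor 1, 67.3 to 83.7 in the others) was highest there. A further 7 genes of the arm, Pik3cb, Pik3r2, Pdpk1, Tsc1, Tsc2, Rptor and Eif4ebp1, had medians of 23.5 to 45.8 CPM. The FOXO factors, which AKT keeps out of the nucleus, had medians of 151 CPM for Foxo1, 152 for Foxo3 and 32.3 for Foxo4. Igf2bp3, an RNA-binding protein of the Igf2 transcript, was at 0 in every tumor.

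Over the 52 other genes of the pathway, 35 passed the filter, and 0 had a slope on the score at an adjusted p under 0.05 in edgeR. At an unadjusted p under 0.05 there was 1 in edgeR. Slopes were above 0 for 16 and below 0 for 19, with a median of -0.06 beside -0.04 over all genes tested. A fold of at least 4 between tumors was found for 5 of the 35 (Igf2r, Grb14, Rictor, Rps6kb1 and Igf2bp2), beside 21.8% of all genes tested. Of these 5, named after their values were seen, 4 were lowest in tumor 1. Over all genes tested, such a fold was found for 2641, and for 1032 without tumor 1, so many folds outside the pathway also depended on this tumor. Igf2bp2 was lowest in tumor 2, at 0.398 CPM. That is under the floor of 3 counts, so its fold did not use this value.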

How the data were processed

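The authors deposited raw counts per gene for each of the 6 libraries (QuantSeq 3′ FWD with a module for molecular identifiers of 6 bases), made after trimming with bbduk and alignment to GRCm38/mm10 with STAR 2.5 and counted with HTSeq. Whether identifiers were collapsed, the strand setting and the annotation release are not given in the sources used here, so genes that overlap on the opposite strand (Polr2b over 85 exon bases of Igfbp7) are uncertain. Rows that name no gene held 16.1 to 41.4% of the reads and were left out. CPM used the total over all genes, and TPM the union exon lengths of GENCODE M21, with 47224 of 47643 identifiers matched. Genes were filtered with filterByExpr (minimum count 10, minimum total 15, group size 3). Slopes were tested with edgeR's quasi-likelihood test, with DESeq2 as an alternative. Values under 3 counts were set to 3 counts for folds, and correlations used log2(TMM-scaled CPM + 1), with two-sided exact permutation tests. P-values measure the spread between the 6 samples, which the labels give as separate samples without naming the animals, so part of it may be technical.

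The genes named are the 10 members, the 3 score genes, the markers, the pathway genes with a median of at least 10 CPM or at 0 in every tumor, and those most like a member (5 for Igfbp5, 2 for each other member that passed the filter). Some genes of the pathway list are not reported here by name. Members and lists were chosen with earlier results of these data known. Software was R 4.3.3, edgeR 4.0.16, DESeq2 1.42.0, Python 3.11.15, numpy 2.4.6, scipy 1.17.1, pandas 2.3.3 and matplotlib 3.10.9.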

Additional observations from a re-analysis of the deposited data

Results flagged for a closer look

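In 8 of 45 sets of 6 values, 1 tumor stood apart from the nearest other. The gap, as a share of the range, was larger than Dixon's 95% critical value for 6 values. That value flags about 1 in 20 sets only where values are normally distributed. Tumor 5 was the one apart for Igfbp2 (11.0 CPM, next 2.42), Igfbp3 (13.8 CPM, next 0.390), Igfbp4 (273 CPM, next 45.1) and, downward, for the share of Igfbp5 in the binding protein counts (94.7%, next 97.7%). The 4 are not independent, since the share falls as the other binding proteins rise. Over all 12088 genes tested, a gap past the critical value with tumor 5 on top was found for 1.24%, and with any tumor on top for 12.8%. The 8 of 45, in CPM and shares, include a downward gap and 2 genes that did not pass the filter, Igfbp2 and Igfbp3. The 12.8% covers upward gaps alone, in TMM-scaled CPM, over genes that passed. Neither 12.8% nor 1 in 20 is therefore a like reference for the 8 of 45. The basal marker sum, mostly Krt14 and Krt17, was highest in the same tumor, and its part was not tested.

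Among the other pathway genes, tumor 1 was apart for Socs2 (336 CPM, next 163), Mtor (131 CPM, next 83.7) and Foxo4 (69.2 CPM, next 35.5), and tumor 2 for Tsc1 (82.9 CPM, next 49.6).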

How the results depend on the processing

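The median levels of the 10 genes moved by less than the SD between tumors under every scaling and with each tumor left out, and the median of Igfbp5 ran from 5161 to 6958 CPM with 1 tumor left out. For Igfbp2, whose SD tumor 5 sets, the median of 1.41 CPM was 0.781 without tumor 1, 3 or 5 and 2.04 without tumor 2, 4 or 6, and that of Igfbp6, 0.0848 CPM, was 0 to 0.170, all within a few counts of 0. Per exon length the median share of Igfbp5 in the binding protein counts was 96.1% in place of 98.8%, and that of Irs1 in the adaptors 27.9% in place of 35.9%. Leaving out 1 tumor gave median shares of 98.7 to 98.9% for Igfbp5, 63.1 to 64.9% for Igf1r and 32.9 to 38.9% for Irs1.

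The number of genes with at least 4-fold between tumors was 2641 of 12088, 4307 at a 3-fold threshold, and 1032 to 2498 with 1 tumor left out, the lowest without tumor 1, and it was 2 to 3 of the 7 members. Genes with a slope on the score numbered 0 in edgeR, 15 in DESeq2, 10 without the filter and 0 to 2 with 1 tumor left out (2 without tumor 1), and at an adjusted p under 0.1 there were 0 in edgeR, 27 in DESeq2, 29 without the filter and 14 without tumor 1. The cause of these differences was not tested. In none of these fits did a member pass 0.05, and Igfbp3, without the filter, was the only one under 0.1. The depth limits Igfbp2, Igfbp3 and Igfbp6, which had at most 12 counts outside tumor 5. No paired analysis was possible because the 6 samples form 1 group.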
